A study of Mus musculus with 2 samples.

Results

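The genes described here encode the classical major histocompatibility complex (MHC) class II chains H2-Aa, H2-Ab1 and H2-Eb1, the peptide-loading chain H2-DMa and the invariant chain Cd74. They were taken by gene symbol from the array annotation, which assigned 8 probe sets to these 5 genes, among 12393 genes named by at least 1 probe set. Expression was measured on 1 Affymetrix array of primitive hematopoietic stem cells (HSC) and 1 array of maturing HSC, both sorted by flow cytometry from mouse bone marrow after 30 min in culture and both untreated. The sources used here give neither the strain, the age nor the surface phenotype of the sorted cells. The RNA of each population was turned into PCR-amplified cDNA, size fractionated and cloned in a phage vector, and the inserts of that library were labelled for the array, so an intensity describes a cloned library. With 1 array per population there was no spread between samples and no test, and every difference below describes these 2 libraries only.

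MHC class II molecules are pairs of an alpha and a beta chain that display peptides from endosomes to CD4 T cells. The invariant chain fills the peptide groove during assembly and steers the pair to endosomes, where proteases cut it down and the DM molecule exchanges the remaining fragment for a peptide. B cells, dendritic cells and macrophages are the best known sites of expression, where the transactivator Ciita switches the genes on through a conserved promoter module bound by RFX, CREB and NF-Y factors.

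All 5 genes read higher in primitive HSC than in maturing HSC, by a median of 2.03-fold, and so did all 8 of their probe sets, beside 49.3% of 12964 measured probe sets. The log2 ratio of primitive over maturing HSC was 1.29 for Cd74, 1.28 for H2-Aa, 1.02 for H2-Eb1, 0.69 for H2-DMa and 0.59 for H2-Ab1, with a median of 1.02. None was 4-fold apart. Among all 8852 measured genes the median log2 ratio was 0.07. The direction held after 4 other scalings and turned for 2 of the 5 genes once the hybridisation controls were held equal, as given below.

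The promoters of the class II genes are shown because 5 of the 8 with a window in the promoter table share a motif arrangement there. The 2 stretches of 250 bases before the annotated start of H2-Aa (chr17:34287824-34288073, minus strand) and H2-Eb1 (chr17:34305617-34305866, plus strand) are from RefSeq, build GRCm38.p6, written 5′ to 3′ along the gene. Capitals mark GCAAC, the core of the RFX-bound X box, and ATTGG, the inverted CCAAT of the NF-Y-bound Y box.
H2-Aa: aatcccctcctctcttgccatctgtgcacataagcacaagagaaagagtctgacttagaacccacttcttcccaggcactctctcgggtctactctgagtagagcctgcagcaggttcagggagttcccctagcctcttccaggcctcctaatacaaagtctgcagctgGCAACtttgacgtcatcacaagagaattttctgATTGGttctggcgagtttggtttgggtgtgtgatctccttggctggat
H2-Eb1: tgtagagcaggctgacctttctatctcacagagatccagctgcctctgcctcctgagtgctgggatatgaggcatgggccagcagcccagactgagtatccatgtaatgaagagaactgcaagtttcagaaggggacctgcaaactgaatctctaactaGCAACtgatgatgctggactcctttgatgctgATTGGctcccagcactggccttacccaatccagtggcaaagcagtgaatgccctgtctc

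The same pair in further class II genes is shown in short stretches on the plus strand, for comparison of the spacing. These genes are H2-Oa (chr17:34092297-34092346) and H2-Ob (chr17:34238812-34238858), which encode the DM-inhibiting DO molecule, and H2-Eb2 (chr17:34325537-34325585), a second E beta gene.
H2-Oa: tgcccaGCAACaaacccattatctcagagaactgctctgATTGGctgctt
H2-Ob: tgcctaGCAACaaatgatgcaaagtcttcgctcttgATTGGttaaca
H2-Eb2: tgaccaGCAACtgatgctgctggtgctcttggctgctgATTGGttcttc

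The bases between the motifs numbered 28 in H2-Aa and H2-Oa, 27 in H2-Eb1 and H2-Eb2, and 25 in H2-Ob. Of 11 class II and invariant chain genes searched, 8 had a window in the promoter table and 5 held the pair. The H2-DMa windows and those of H2-DMb1 and H2-DMb2 did not hold these letters in this arrangement. The search in these genes ran along the gene strand and allowed 20 to 32 bases between GCAAC and ATTGG. The spacing was set after these sequences had been read. Over all 32851 promoter windows, 0.688% held the pair, 35.2% held GCAAC and 37.4% held ATTGG, each on either strand. The motifs do not overlap each other. Outside the 5 class II and invariant chain genes described here, 56 measured genes had the pair in a window on either strand. The class II gene H2-Oa was among them. Of these 56 genes, 34 were higher and 22 lower in primitive HSC, beside 52.7% of all 8852 measured genes higher. The median log2 ratio of the 56 was 0.30, beside 0.07 for all measured genes.

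H2-Aa encodes the alpha chain of the I-A molecule. Its probe set 1435290_x_at read 10007.5 in primitive HSC and 4113.6 in maturing HSC, in MAS5 intensity units. Its second probe set, 1452431_s_at, read 4984 in primitive HSC and 1822 in maturing HSC. The log2 ratios were 1.28 and 1.45, so both readings of the gene were more than 2-fold higher in primitive HSC. Both probe sets carry a suffix that marks possible binding to more than 1 transcript, and H2-Aa therefore had no reading once such probe sets were left out.

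H2-Ab1 encodes the beta chain that pairs with H2-Aa, and it had the smallest ratio of the 5 genes. Probe set 1450648_s_at read 2218 in primitive HSC and 1471 in maturing HSC, a log2 ratio of 0.59. Probe set 1451721_a_at read 1137 in primitive HSC and 998 in maturing HSC, a log2 ratio of 0.19. The third, 1425477_x_at, read 452 in primitive HSC and 307 in maturing HSC. Its value in maturing HSC lay under the floor of 441.05, the median intensity of all non-control probe sets on both arrays, so the value in primitive HSC is at least 1.02-fold higher. Such a ratio against the floor is called a bound, since the true ratio lies at least that far from 0 on the log2 scale. All readings of H2-Ab1 pointed the same way as those of H2-Aa, but both H2-Ab1 probe sets above the floor had smaller ratios than either H2-Aa probe set. Probe sets of one gene differed with an SD of 0.82 in log2 ratio, taken from 1318 genes. This SD is larger than the gap between the ratios of the brightest H2-Aa and H2-Ab1 probe sets. It is also larger than the log2 ratios of H2-Ab1, 0.59, and H2-DMa, 0.69, themselves.

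H2-Eb1 encodes the beta chain of the I-E molecule. Its only probe set read 2053 in primitive HSC and 1013 in maturing HSC, a 2.03-fold difference. H2-DMa encodes the alpha chain of DM, the endosomal editor that frees the groove. It read 4178 in primitive HSC and 2591 in maturing HSC, 1.61-fold higher in primitive HSC. Cd74 read 1218 in primitive HSC and 497 in maturing HSC, a 2.45-fold difference. The Cd74 intensity in maturing HSC was 1.13 times the floor, the lowest of the readings used for the 5 genes, and these last 3 genes had 1 probe set each.

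**Figure D1:**
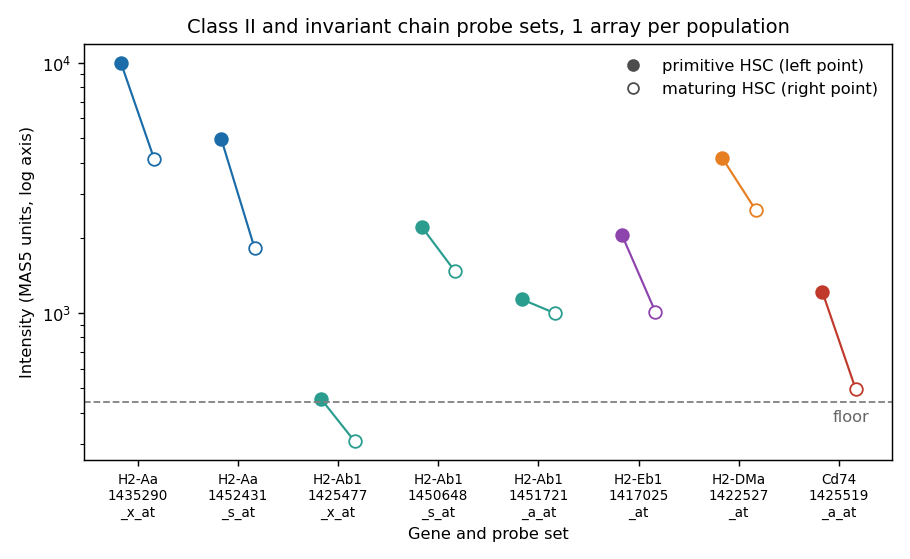
Intensity (MAS5 units, log axis) of the 8 probe sets of the 5 genes, with primitive HSC as the filled left point and maturing HSC as the open right point of each pair, and the floor as a dashed line. The primitive HSC point is the higher of each pair, and 7 of the 8 probe sets lie above the floor on both arrays.

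All 5 genes passed the floor on both arrays, and the members at least 2-fold higher in primitive HSC were Cd74, H2-Aa and H2-Eb1. These 3 of 5 stand beside 15.6% of the 8852 measured genes that were 2-fold or more higher in primitive HSC. At 4-fold there were 0 of 5 members, beside 3.45% of measured genes higher and 4.69% lower in primitive HSC. Of all measured genes, 52.7% were higher in primitive HSC by any amount, beside 5 of 5 members. Of 2764 genes with several measured probe sets, 23.3% had all of them higher in primitive HSC, as H2-Aa and H2-Ab1 did. These shares describe the arrays, since members of one complex and probe sets of one gene are not independent readings.

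Single ratios of this size were common. Over the 5525 genes that exceeded the floor in each population, Cd74 stood at percentile 89.8, H2-Aa at 89.6, H2-Eb1 at 84.1, H2-DMa at 74.4 and H2-Ab1 at 70.8. The quartiles of those genes were -0.58 and 0.70, so H2-DMa and H2-Ab1 lay between the quartiles. The 552 brightest of these genes had a median of 0.61. Genes whose genomic span lay in the same range as that of the 5 genes, 5.08 to 19.4 kb, had a median of 0.10 over 2935 genes. The 5 genes nearest to Cd74 in ratio were Cyp4b1, Bzw1, Cox7a2l, Apip and Psmb9, each within 0.002 on the log2 scale, a likeness that rests on 2 arrays.

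**Figure D2:**
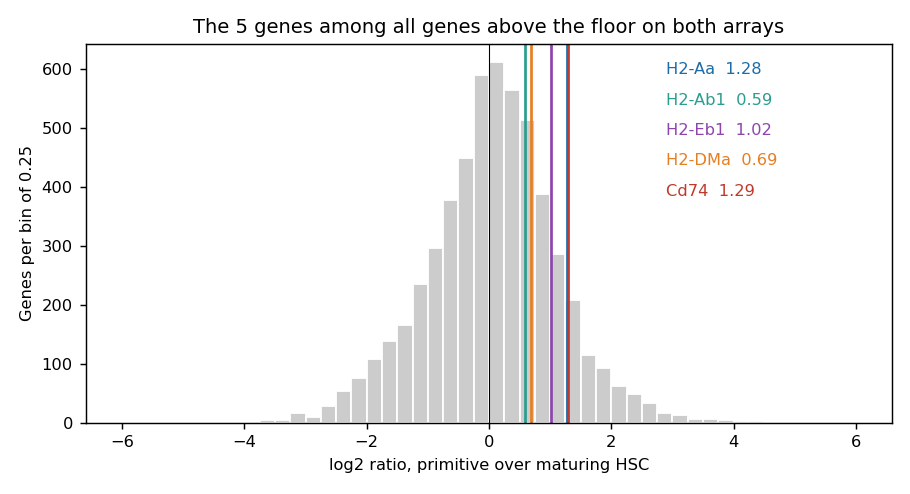
Number of genes per bin of log2 ratio (primitive over maturing HSC) for 5525 genes in grey, all measured above the floor in each population, with a coloured line for each of the 5 genes. The lines stand between 0.59 and 1.29, right of 0 and inside the bulk of the distribution.

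The scale of the ratios depended on what was held equal. The 18 probe sets for transcripts spiked in at hybridisation had a median log2 ratio of 0.97 toward primitive HSC, and they ranged from 0.52 to 1.89. With these held equal, H2-Aa stood at 0.31, Cd74 at 0.32, H2-Eb1 at 0.04, H2-DMa at -0.28 and H2-Ab1 at -0.38, while the median of all measured genes moved to -0.74. The median of the members minus that of all measured genes was 0.78 in this scaling and 0.95 as reported. After lowess, which removes the trend of ratio with signal, the members ran from 0.72 to 1.25. Scaling to the hybridisation controls, unlike lowess, shifted every probe set by the same amount before the floor was applied. The place of the members among the other genes could then change through the floor or through a change of a gene's brightest probe set. The direction of the members depended on that scaling. Of the related lists described below, 11 had a median with the hybridisation controls held equal, and all 11 were below 0, from -1.12 to -0.21.

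**Figure D3:**
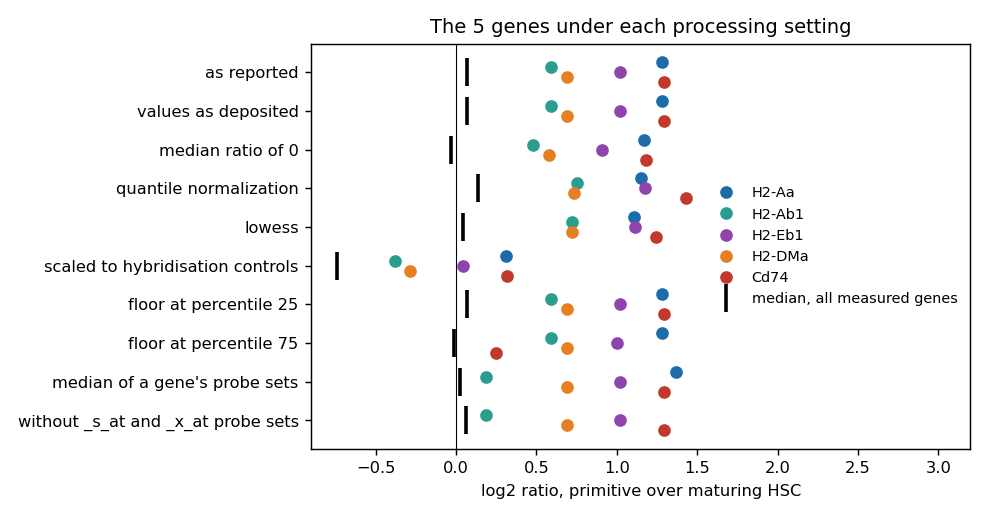
Log2 ratio (primitive over maturing HSC) of each of the 5 genes under the reported setting and 9 alternatives, with the median of all measured genes as a black bar. Scaling to the hybridisation controls moved H2-DMa and H2-Ab1 below 0, and the median of all measured genes to -0.74.

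The remaining class II genes also read higher in primitive HSC, mostly near the floor. H2-DMb2, a beta chain of DM, read 706 in primitive HSC and 521 in maturing HSC, a log2 ratio of 0.44 that turned to -0.54 with the hybridisation controls held equal. H2-Oa read 470 in primitive HSC and 263 in maturing HSC, and since the value in maturing HSC was under the floor, its bound was 0.09. H2-Ea is annotated as a transcribed pseudogene in the C57BL/6J reference. Its brightest probe set read 453 in primitive HSC and 234 in maturing HSC, again a bound, of 0.04, and its other 2 probe sets were under the floor on both arrays. H2-DMb1 and H2-Ob had only probe sets shared with other genes and are not given values, and H2-Eb2 had none in the annotation used here. All 3 measured genes of this list were thus higher in primitive HSC, beside 52.7% of all measured genes. The list's median of 0.09 was set by the floor. With the floor at percentile 25, H2-Oa stood at 0.84, H2-Ea at 0.96 and the median at 0.84.

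On chromosome 17 the 4 H2 members lie within a run of class II and antigen-processing genes. Between H2-K1 and H2-Ea the RefSeq table holds 21 protein-coding genes and transcribed pseudogenes, of which 18 had a probe set of their own. Apart from the members, 11 of these were measured, 6 higher and 5 lower in primitive HSC, beside 52.7% of all measured genes higher. The median log2 ratio of the 11 was 0.04. The immunoproteasome subunit gene Psmb9 read 6611 in primitive HSC and 2699 in maturing HSC, a log2 ratio of 1.29, and its partner Psmb8 stood at 0.79. Tap1, which encodes a subunit of the transporter that carries peptides to class I molecules, lay between them in position and stood at -0.15, and Tap2 was under the floor on both arrays. Brd2, the bromodomain gene beside H2-DMa, read 104 in primitive HSC and 6775 in maturing HSC, a bound of -3.94. The annotated spans of Brd2 and H2-DMa overlap, yet the 2 genes stood on opposite sides of 0. Brd2 was included by its position and lies outside the gene lists.

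**Figure D4:**
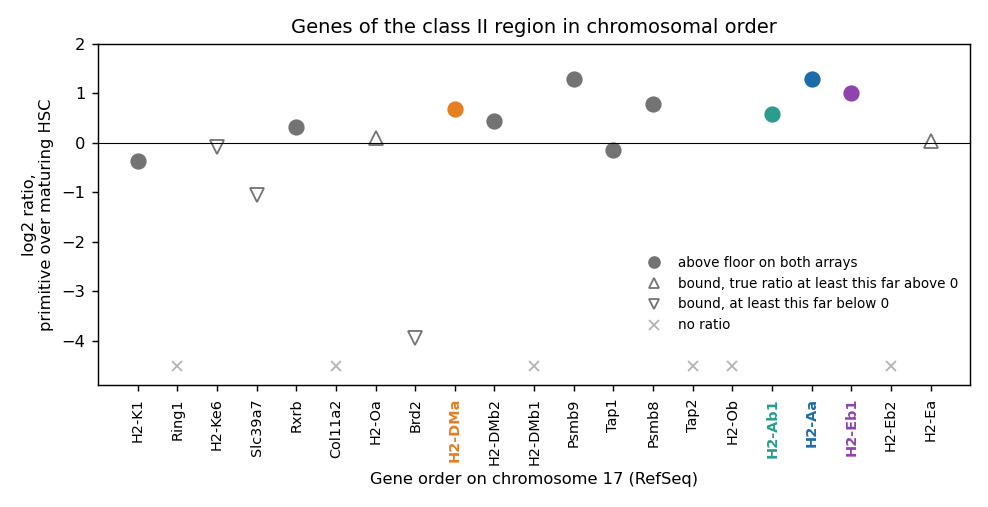
Log2 ratio (primitive over maturing HSC) of genes in their order on chromosome 17 from H2-K1 to H2-Ea, with the members in colour. Filled circles are above the floor on both arrays, open triangles are bounds and crosses are genes without a ratio. The 4 members stand at 0.59 to 1.28, and the genes between them range from -0.15 to 1.29.

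The regulators of class II transcription were split in direction. Of 8 genes, 6 were measured, 2 higher and 4 lower in primitive HSC, with a median of -0.23. The 2 of 6 higher stand beside 52.7% of all measured genes. Ciita, the master transactivator, had 2 probe sets, which read 212 and 330 in primitive HSC and 354 and 257 in maturing HSC, all under the floor, so no ratio was obtained. Rfx5, the DNA-binding subunit of the RFX complex, read 710 in primitive HSC and 1699 in maturing HSC, a log2 ratio of -1.26. Its partner Rfxank read 1248 in primitive HSC and 628 in maturing HSC, a log2 ratio of 0.99, with a second probe set at a bound of 0.89. The third subunit, Rfxap, was under the floor on both arrays. The RFX subunits that could be measured therefore stood on opposite sides of 0.

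The NF-Y subunits Nfya, Nfyb and Nfyc stood at -0.14, -0.32 and -0.54. Nfya had a second probe set at a bound of 0.01, so its direction was not the same on both. Creb1 had a bound of 1.40 on its brightest probe set and -0.15 on another. The counts for these regulators were 1 of 6 at least 2-fold higher, beside the background of 15.6%, and 1 of 6 at least 2-fold lower, beside 17.6%.

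Endosomal processing genes were mostly near 0 or lower in primitive HSC, with 1 of 7 measured genes higher, 6 lower and a median of -0.31. Ctss, which encodes cathepsin S, the protease that trims the invariant chain in B and dendritic cells, read 4364 in primitive HSC and 4835 in maturing HSC, a log2 ratio of -0.15. Ctsl, encoding cathepsin L, stood at 0.09. Ctsz, Ctsd and Ctsb stood at -1.45, -0.65 and -0.31 on their brightest probe sets, and a second Ctsb probe set stood at -1.997. Ifi30, which encodes the reductase that opens disulfide bonds of antigens, had a bound of -0.32, which was -1.77 with the floor at percentile 25, and Lgmn was under the floor on both arrays. At 2-fold, 0 of these 7 genes were higher in primitive HSC, beside 15.6% of measured genes, and 1 was lower, beside 17.6%. By any amount, 1 of 7 was higher, beside 52.7% of measured genes.

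The class I pathway, which displays peptides made by the proteasome, was mixed. Of 23 genes 15 were measured, 6 higher and 9 lower in primitive HSC, with a median of -0.15. The 6 of 15 higher stand beside 52.7% of all measured genes. Psme1, an activator subunit of the proteasome, stood at 1.97. The chaperone genes Pdia3, Canx and Tapbp stood at -2.41, -1.91 and -1.91, although a second Tapbp probe set stood near 0 and the 3 Canx probe sets ran from -1.91 to -0.35. The class I heavy chain gene H2-K1 read 45149 in primitive HSC and 58501 in maturing HSC, a log2 ratio of -0.37, and its 4 measured probe sets ran from -0.37 to 0.72. H2-D1 and B2m lie outside the naming rule and were added after their values were seen. The heavy chain gene H2-D1 stood at 0.35, with 8 measured probe sets from -2.07 to 0.82, and its brightest probe set turned to -0.33 after lowess. The light chain gene B2m read 136985 in primitive HSC and 50685 in maturing HSC, a log2 ratio of 1.43 that was 0.38 after lowess and 0.45 after quantile normalization.

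**Figure D5:**
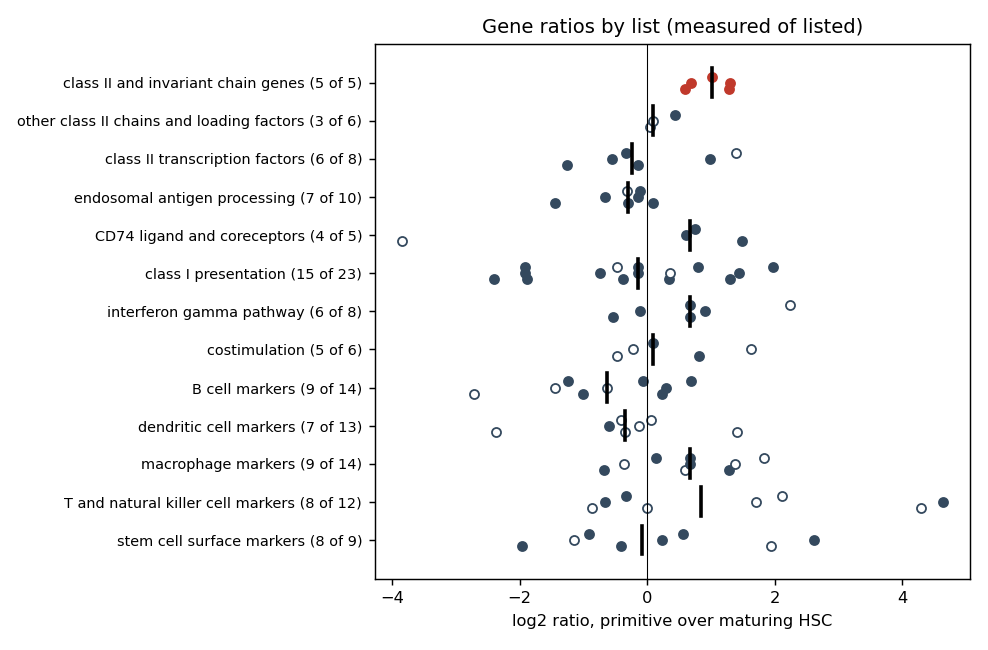
Log2 ratio (primitive over maturing HSC) of each measured gene, 1 row per list, with filled points above the floor on both arrays, open points for bounds, and a black bar at the list's median. The class II and invariant chain genes in the top row lie between 0.59 and 1.29, while every other row with more than 3 measured genes has points on both sides of 0.

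Cd74 also serves at the cell surface as the receptor for the cytokine Mif, with Cd44 and the chemokine receptors Cxcr2 and Cxcr4 as partners. Mif read 29922 in primitive HSC and 10629 in maturing HSC, a log2 ratio of 1.49, and its homologue Ddt stood at 0.61. Cxcr4 read 753 in primitive HSC and 449 in maturing HSC, a log2 ratio of 0.75. The brightest Cd44 probe set read 428 in primitive HSC and 6332 in maturing HSC, a bound of -3.84, and Cxcr2 was under the floor on both arrays. Of the 4 measured genes, 3 were thus higher and 1 was lower in primitive HSC, beside 52.7% of all measured genes higher.

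Interferon gamma is the best known inducer of class II genes outside dedicated antigen-presenting cells. Its gene Ifng read 2083 in primitive HSC and 391 in maturing HSC, a bound of 2.24. The receptor genes went opposite ways, with Ifngr2 at 0.90 and Ifngr1 at -0.54. Jak1 and Jak2, the kinases bound to the receptor, stood at 0.68 and 0.67, with other probe sets down to -1.24 and -0.39. Irf1, a target gene of the pathway, stood at -0.12. Over this list 4 of 6 measured genes read higher in primitive HSC, beside 52.7% of all measured genes. The list's median was 0.67. It was 0.01 when each gene was read as the median over its probe sets, by which Jak1 stood at -0.60. Among genes for costimulatory and coinhibitory molecules, Cd86 had a bound of 1.62 and the coinhibitory ligand gene Pdcd1lg2 stood at 0.81. Cd40 had a bound of -0.48. The Icosl probe sets disagreed, with bounds of -0.22 and 0.68.

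Markers of the cells that normally carry class II molecules were read on the same arrays. In these bulk samples, fewer cells of a type and less RNA per cell cannot be told apart. Of 14 B cell markers, 9 were measured, 3 higher and 6 lower in primitive HSC, with a median of -0.62. The 3 of 9 higher stand beside 52.7% of all measured genes. Here and in the marker lists below, intensities were summed over the probe sets used for all listed genes, also those under the floor. For the B cell markers the sums came to 6692 in primitive HSC and 11357 in maturing HSC. Pax5 and Ebf1, the defining B lineage factors, were under the floor on both arrays. Spib, Cd79b and Vpreb3 stood at -1.23, -1.01 and a bound of -1.45. The 3 higher genes were Cd22 at 0.68, Cd79a at 0.30 and Blk at 0.23, each above the floor on both arrays. Ighm, the immunoglobulin mu chain gene, read 57 in primitive HSC and 2880 in maturing HSC on its brightest probe set, a bound of -2.71, but its 8 measured probe sets ran from -2.71 to 1.38. The median of the B cell list was -0.19 when each gene was read as the median over its probe sets, and lowering the floor to percentile 25 gave -0.06.

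Of 13 dendritic cell markers, 7 were measured, 2 higher and 5 lower in primitive HSC, beside 52.7% of all measured genes higher. The list's median was -0.34, and its summed intensity was 3607 in primitive HSC and 6063 in maturing HSC. Itgax and Batf3 were under the floor on both arrays. Of the 7 measured genes, 6 had bounds. Bst2 had a bound of 1.42. Flt3, which early progenitors also express, read 220 in primitive HSC and 2277 in maturing HSC, a bound of -2.37. It made up most of the gap between the summed intensities. Clec10a stood at -0.60 and Xcr1 at a bound of -0.41.

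Most of the measured macrophage markers read higher in primitive HSC. Of 14 macrophage markers, 9 were measured, 7 higher and 2 lower in primitive HSC, with a median of 0.67. The 7 of 9 higher stand beside 52.7% of all measured genes, and 4 of the 9 were bounds. The summed intensity of the list was 10739 in primitive HSC and 7574 in maturing HSC. The lysosomal marker gene Cd68 read 1192 in primitive HSC and 492 in maturing HSC, a log2 ratio of 1.28, and Mrc1 stood at 0.68. Apoe and Msr1 had bounds of 1.83 and 1.37. In the other direction, Csf1r stood at -0.67, with probe sets from -1.05 to 0.21, and Vcam1 at a bound of -0.37. Marco, C1qa, C1qc and Cd163 were under the floor on both arrays, and the defining macrophage gene Adgre1 stood at 0.67 with its maturing value barely above the floor. Raising the floor to percentile 75 gave a median of 0.14, and holding the hybridisation controls equal gave -0.21. For T and natural killer cell markers, 4 of 8 measured genes were higher, beside 52.7% of all measured genes. The list's median was 0.85, and its summed intensities were 57634 in primitive HSC and 13250 in maturing HSC. Cd3e, Cd3g and Cd4 were under the floor on both arrays. The chemokine gene Ccl5, with 37795 in primitive HSC and 1511 in maturing HSC, and the T cell receptor component gene Cd3d, with 8673 in primitive HSC and 44 in maturing HSC, made up most of the primitive sum. Klrd1 and Gzma had bounds of 2.11 and 1.71. Lower in primitive HSC were Nkg7 at -0.33, with 6299 in primitive HSC and 7933 in maturing HSC, and Gzmb at -0.65. Cd8a and Tbx21 had bounds of -0.87 and -0.01. The median of this list was 1.81 after quantile normalization. Lowering the floor to percentile 25 gave -0.21, and holding the hybridisation controls equal gave -0.32. The part of macrophage or lymphoid cells in the class II readings was not tested.

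Stem cell surface genes were also read on both arrays. They could not check the sort, since the surface phenotype of the sorted cells is not given. All 8 of the 9 listed genes that had a probe set were measured, 4 higher and 4 lower in primitive HSC, and their median was -0.09. The 4 of 8 higher stand beside 52.7% of all measured genes. Procr stood at 2.61, Abcg2 at a bound of 1.94, Thy1 at 0.56 and Slamf1 at 0.24, with a second Slamf1 probe set at -0.25. Itga6 stood at -1.96, Tek at a bound of -1.15, Cd34 at -0.91 and Kit at -0.41.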

How the data were processed

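The deposited table holds linear intensities, 1 per probe set and array. Per the submitters' processing notes the authors used MAS5, of a version not stated in the sources used here, which summarises the probe pairs of each probe set. The 2% trimmed mean over 22690 probe sets was 1000.6 for primitive HSC and 1000.4 for maturing HSC, so the authors had scaled both arrays alike, which hides any difference in the total RNA of a cell. The remaining small gap was removed by rescaling. Probe sets were named from the platform annotation, and only the 20380 with 1 gene symbol were used. Of these, 20351 symbols were checked through Entrez identifiers and 0 changed. Each gene was read from its brightest probe set, by mean intensity. Intensities under 441.05, the median over non-control probe sets of both arrays, were raised to it as a floor before log2 was taken. A gene with 1 value at the floor has a bound, and one with both there was not measured. Detection calls were not used.

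The members and the 12 related gene lists were chosen with earlier results of these data known. Named were all members, the other class II genes and their regulators, up to 4 genes of each other list with the largest ratio or bound, list members between H2-K1 and H2-Ea, and the 5 genes nearest to Cd74 in ratio. Further genes such as Ctss, Ctsl, Kit and Csf1r were named for their role or to show members in the other direction, after their values were seen. Array number limits the precision. The steps were tested on simulated data with larger changes than those of the 5 genes, placed in bright genes only. That test does not bear on ratios of the size reported here. Python 3.11.15, numpy 2.4.6, pandas 2.3.3 and statsmodels 0.14.6 were used. Alternatives covered 5 scalings, 2 floors, 2 thresholds and 2 ways to choose probe sets.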

Additional observations from a re-analysis of the deposited data

How the results depend on the processing

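The 5 genes stayed higher in primitive HSC in every alternative tried in which they had a reading, except that scaling to the hybridisation controls turned H2-DMa (-0.28) and H2-Ab1 (-0.38). That scaling brought the median of the class II and invariant chain genes to 0.044 and the count at least 2-fold higher to 0. Other scalings gave medians from 0.91 to 1.15, and with the median ratio set to 0 the count was 2. With the floor at percentile 75 the median was 0.69 and the count was 1, with Cd74 at a bound of 0.25 because its value in maturing HSC was under that floor. Without the probe sets marked _s_at and _x_at, 4 genes had a reading, their median was 0.85, and H2-Ab1 stood at 0.19. The number apart in either direction was 3 at 2-fold and 0 at 4-fold and 8-fold. Counts at 2-fold under other settings were added after seeing the data.

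Genes 4-fold higher and lower in primitive HSC numbered 305 and 415 as reported, 91 and 1231 with the hybridisation controls held equal, 761 and 998 with the floor at percentile 25 and 165 and 126 at percentile 75. H2-K1 stood at -1.28 after lowess. No paired analysis was possible because each population had 1 array.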
